A study of Mus musculus with 18 samples.

Results

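The 5 genes that encode the Period and cryptochrome repressors of the circadian clock, *Per1*, *Per2*, *Per3*, *Cry1* and *Cry2*, were taken by their symbols from a liver table of 14451 genes. All 5 were listed in the table, and all 5 were among the 14449 genes tested. The table holds RNA sequencing of whole livers from wild-type male mice of 8 to 9 weeks, kept under 12 h of light and 12 h of dark and collected at zeitgeber times (ZT, hours after lights on) 1, 5, 9, 13, 17 and 21. There were 3 livers per time point and 18 in all, each liver came from another mouse, and 5 mice were kept per group, of which the 3 with the best RNA were sequenced. All animals had the same genotype and none was treated, so time of day is the only difference between the groups that the labels name. As the livers were collected in a light and dark cycle, a change that follows the light and one that follows the internal clock cannot be told apart.

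In the mammalian clock, the activators CLOCK and BMAL1 (gene symbol *Arntl*) bind E-box sequences and drive transcription of the Period and cryptochrome genes, whose proteins form complexes, return to the nucleus and repress those activators. The complexes are then marked by kinases and removed through ubiquitin ligases, which opens the next cycle. D-box sequences, bound by DBP, TEF, HLF and the repressor NFIL3, and RORE sequences, bound by the ROR activators and REV-ERB repressors, add further inputs, and in the liver these clocks time much of metabolism.

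The members lie on 5 chromosomes of GRCm38, in the GENCODE annotation of that build. *Per1* (ENSMUSG00000020893) is at chr11:69095217-69109960 on the plus strand. *Per2* (ENSMUSG00000055866) is at chr1:91415982-91459324, *Per3* (ENSMUSG00000028957) at chr4:151003652-151044665, *Cry1* (ENSMUSG00000020038) at chr10:85131700-85185064 and *Cry2* (ENSMUSG00000068742) at chr2:92403646-92434043, all on the minus strand. The span of *Per3* overlaps that of *Camta1* on the same strand without a shared exon. *Cry2* overlaps the antisense gene *D930015M05Rik* in exons, and since the sources used here do not state counting by strand, reads of the pair cannot be told apart. The listed level of *D930015M05Rik* was between 0.885% and 2.18% of that of *Cry2* over the 6 time points.

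The sequences just before the start sites are shown because they hold elements of the kinds named above. RefSeq (GRCm38.p6) gave promoter windows for 4 of the 5 members (all but *Per2*), with 2 windows for *Per1*, and 250 bases before the start are printed for 1 window of each, 5′ to 3′ on the strand of the gene. Capitals mark matches on either strand to the E-box CACGTG, the E′-box CACGTT, the D-box TTATGTAA or the RORE core AGGTCA. The windows are chr11:69098699-69098948 (plus strand) for *Per1*, chr4:151044666-151044915 (minus) for *Per3*, chr10:85185055-85185304 (minus) for *Cry1* and chr2:92434070-92434319 (minus) for *Cry2*. The *Per1* window lies inside the annotated gene span, since another transcript of the gene starts farther upstream. The last 10 bases of the *Cry1* window and 1 base of the *Per1* window are exonic in GENCODE.
Per1: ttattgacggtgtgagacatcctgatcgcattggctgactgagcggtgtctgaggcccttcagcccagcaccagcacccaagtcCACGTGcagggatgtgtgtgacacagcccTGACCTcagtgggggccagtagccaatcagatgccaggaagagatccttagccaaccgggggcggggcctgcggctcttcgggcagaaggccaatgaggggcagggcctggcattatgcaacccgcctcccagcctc
Per3: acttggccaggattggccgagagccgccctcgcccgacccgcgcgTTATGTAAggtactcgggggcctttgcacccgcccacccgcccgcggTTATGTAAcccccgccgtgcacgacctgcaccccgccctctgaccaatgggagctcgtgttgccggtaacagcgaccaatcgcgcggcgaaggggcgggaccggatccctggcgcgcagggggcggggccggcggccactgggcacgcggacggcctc
Cry1: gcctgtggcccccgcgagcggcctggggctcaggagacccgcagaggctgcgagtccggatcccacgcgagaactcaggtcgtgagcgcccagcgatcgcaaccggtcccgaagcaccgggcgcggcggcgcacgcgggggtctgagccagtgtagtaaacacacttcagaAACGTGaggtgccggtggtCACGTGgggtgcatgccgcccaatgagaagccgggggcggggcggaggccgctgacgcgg
Cry2: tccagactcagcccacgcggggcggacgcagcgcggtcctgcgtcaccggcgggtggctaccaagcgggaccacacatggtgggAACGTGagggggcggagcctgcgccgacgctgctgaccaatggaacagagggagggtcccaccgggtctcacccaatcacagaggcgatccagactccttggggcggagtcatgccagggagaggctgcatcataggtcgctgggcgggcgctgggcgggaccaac

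Matches were counted over windows of 300 bases, 250 before and 50 after the start, in 32851 promoters. In *Per1* an E-box starts at -166 from the start site and a RORE core at -137, read on the minus strand of the gene. An E-box is held by 7.15% and a RORE core by 16.3% of all windows. In *Cry1* the E-box is at -60, and an E′-box, held by 4.68% of windows, lies before it at -79. The single marked match of *Cry2* is an E′-box at -166. *Per3* holds 2 D-box matches, at -205 and -158, and no E-box. A D-box is held by 0.938% of windows, and 7 of the 32851 hold at least 2. The TGACG core of a cAMP response element, found in 20.8% of windows and not capitalized, are present at -246 and, in the second window, at -132 for *Per1*, at -8 for *Cry1* and at -209 for *Cry2*. The full element TGACGTCA, of which TGACG is a part, and the heat shock element GAANNTTC, held by 1.79% and 7.86% of windows, had no match in these windows. A match is a description of letters and not a measured binding site.

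The deposited value is linear and holds the estimated reads of a gene, with 0.5 added, scaled to 1000000 reads of a library size that the authors adjusted. Read numbers were calculated back from the values, with the lowest value of each liver taken as a gene without reads. Summed over the listed genes, the libraries held 10268168 to 23242842 such reads. The sum of 6 hepatocyte markers was between 70138 and 100660 in the 18 livers, against 87.7 to 236 for 6 Kupffer cell, 68.6 to 163 for 5 sinusoidal endothelial and 136 to 220 for 5 stellate cell markers. In whole tissue, fewer cells of a type and less RNA per cell cannot be told apart. By 14 clock genes that are not among the 5 members, 17 of 18 livers were nearest to the mean of their own time point. Liver 3 at ZT5 was nearer to ZT9 than to ZT5, and several results on ZT5 are also given without it. It was also the most deeply sequenced library.

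All 5 members changed with time of day. In limma, with log2(value + 1) and 1 mean per time point, the Benjamini–Hochberg adjusted *P*-value of the time effect was 1.92e-05 for *Per1*, 3.12e-06 for *Per2*, 9.71e-09 for *Per3*, 1.06e-07 for *Cry1* and 0.000231 for *Cry2*. Of all genes tested, 26.3% passed. The difference between the highest and the lowest time point was 3.64, 2.97, 4.37, 2.73 and 1.03 on the log2 scale for the members in that order, against a median of 0.44 over all genes. By this difference *Per3* ranked 7 of 14449 genes, *Per1* 15, *Per2* 28, *Cry1* 39 and *Cry2* 965. The call held for all 5 members without any 1 liver and under all 6 alternatives of scale, filter and variance.

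**Figure D1:**
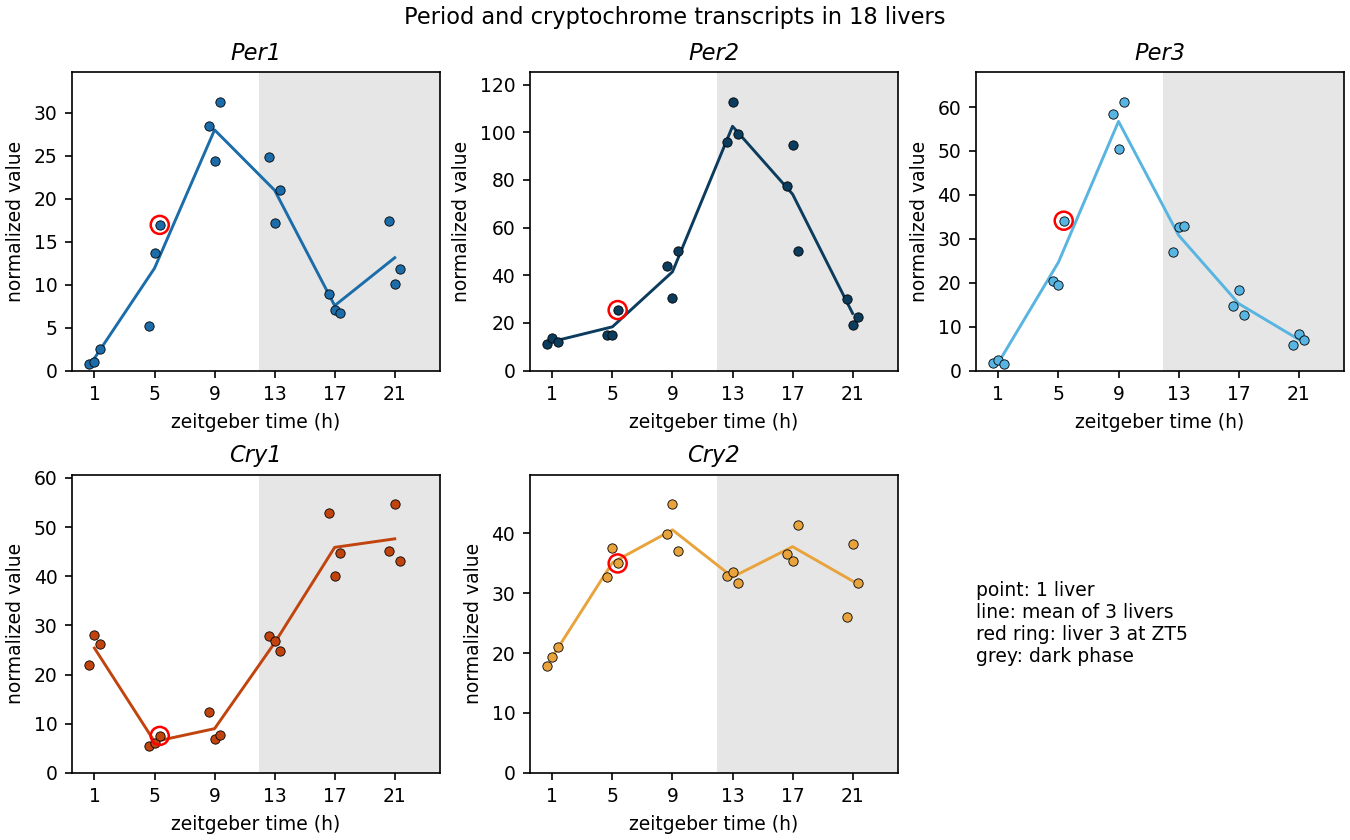
Normalized value (vertical axes, linear and starting at 0) against zeitgeber time in hours for each member. Each point is 1 liver, lines join the means of 3 livers, grey marks the dark phase and the red ring marks liver 3 at ZT5. The Period genes are lowest at ZT1, *Cry1* is lowest at ZT5 and *Cry2* has the flattest profile.

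*Per1* encodes a Period protein, and the gene can also be switched on quickly by light, hormone and cAMP signals. Its values in the 3 livers were 0.727, 1.05 and 2.53 at ZT1, and 5.15, 13.6 and 17.0 at ZT5. They were 28.5, 24.4 and 31.3 at ZT9, and 24.9, 17.1 and 21.0 at ZT13. At ZT17 they were 8.95, 7.05 and 6.68, and at ZT21 17.5, 10.1 and 11.9. The 3 livers of ZT1 were the lowest of all 18, with 10 estimated reads behind the lowest value, and those of ZT9 overlapped only with ZT13. The mean was 28.03 ± 3.47 (SD, n = 3) at ZT9 and 1.44 ± 0.964 at ZT1, a ratio of 19.5, which was 31.6 without liver 3 at ZT1. *Per1* rose from ZT1 to ZT5 by 2.34 ± 0.33 (SE) on the log2 scale, with an adjusted *P*-value of 0.000761 in limma, and by 2.03 ± 0.34 without liver 3 at ZT5 (0.00554). The largest fall was from ZT21 to ZT1, by 2.57 ± 0.33, with an adjusted *P*-value of 0.00237 in limma.

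The profile of *Per1* had a second high value late in the night. All 3 livers of ZT21 (10.1 to 17.5) were above all 3 of ZT17 (6.68 to 8.95), while *Per2* and *Per3* were lower at ZT21 than at ZT17 in every liver. The *Per1* difference was 0.70 ± 0.33 on the log2 scale and did not pass the test (adjusted *P*-value of 0.354 in limma). The mean at ZT21 was 13.1 ± 3.86 (SD, n = 3), close to the 11.9 ± 6.09 of ZT5, which had the widest spread of the gene. The step from ZT5 to ZT9, of 1.30 ± 0.33, missed the threshold with an adjusted *P*-value of 0.0704 in limma, passed without liver 3 at ZT5 (1.61 ± 0.34, 0.0349) and was 0.83 without liver 1 at ZT5 (0.248). The fall from ZT13 to ZT17, of -1.36 ± 0.33, was likewise not called with all livers (0.0637) and called without that liver (0.0467) or without liver 1 at ZT5 (0.0137).

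*Per2* encodes a core component of the repressor complex and a main target of the casein kinases that time it. Its values were 11.04, 13.6 and 11.9 at ZT1, and 14.8, 14.9 and 25.4 at ZT5. At ZT9 they were 43.9, 30.4 and 50.1, and at ZT13 95.7, 113 and 99.1. They were 77.3, 94.6 and 50.2 at ZT17, and 30.2, 19.1 and 22.6 at ZT21. The ZT13 livers were the 3 highest of 18, and in the order ZT13, ZT17, ZT9 and ZT21 no time point overlapped the next, though the lowest liver of ZT17 (50.2) lay just above the highest of ZT9 (50.1). Livers of ZT21 and ZT5 overlapped, and ZT1 was below both. The mean was 103 ± 8.97 (SD, n = 3) at ZT13 and 12.2 ± 1.30 at ZT1, a ratio of 8.42. *Per2* rose from ZT5 to ZT9 by 1.15 ± 0.25 and from ZT9 to ZT13 by 1.31 ± 0.25 on the log2 scale (adjusted *P*-values of 0.0315 and 0.00405 in limma). It fell by 1.56 ± 0.25 from ZT17 to ZT21, with 0.00824 in the same test. The rise from ZT5 to ZT9 lost its call without liver 1 or 2 at ZT5 or without liver 1 or 3 at ZT9, with adjusted *P*-values up to 0.144, and kept it without liver 3 at ZT5 (1.39 ± 0.25, 0.0117).

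*Per3* encodes the third Period protein, which is not needed for the clock to run in mice. Its values were 1.70, 2.32 and 1.39 at ZT1, and 20.4, 19.5 and 34.1 at ZT5. They were 58.5, 50.5 and 61.1 at ZT9, and 27.0, 32.7 and 32.8 at ZT13. At ZT17 they were 14.8, 18.4 and 12.6, and at ZT21 5.93, 8.33 and 7.03. ZT9 was above and ZT1 below every other liver, and the only neighbours in the order of levels to overlap were ZT13 and ZT5, through liver 3 at ZT5. From 1.80 ± 0.475 (SD, n = 3) at ZT1 the mean reached 56.7 ± 5.52 at ZT9, a ratio of 31.5 (28.3 to 36.8 without 1 liver). This was the widest ratio of the 5 members with all livers, and without liver 3 at ZT1 it was 28.3, below the 31.6 of *Per1*. With all livers, *Per3* was the only member called in all 6 steps between neighbouring time points. It rose by 3.17 ± 0.20 and 1.21 ± 0.20 in the first 2 steps and then fell in each of 4, by 0.86, 0.98, 1.00 and 1.53, each ± 0.20 on the log2 scale. Adjusted *P*-values in limma were between 1.17e-07 (ZT1 to ZT5) and 0.0237 (ZT13 to ZT17). Leaving out 1 liver ended the call of the ZT9 to ZT13 fall in 1 case (adjusted *P*-value of 0.0603 without liver 1 at ZT13), that of ZT13 to ZT17 in 5 (up to 0.107) and that of ZT17 to ZT21 in 4 (up to 0.0867). The ZT13 to ZT17 call was also lost with a pseudocount of 0.1 (0.0516) or none (0.0564). Without liver 3 at ZT5 the rises were 2.92 ± 0.17 and 1.46 ± 0.17 and kept their calls.

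*Cry1* encodes the cryptochrome known as the late and strong repressor of CLOCK and BMAL1. Its values were 22.0, 28.1 and 26.1 at ZT1, and 5.47, 6.10 and 7.51 at ZT5. They were 12.4, 6.85 and 7.73 at ZT9, and 27.7, 26.9 and 24.7 at ZT13. At ZT17 they were 52.8, 40.1 and 44.8, and at ZT21 45.2, 54.6 and 43.1. The levels formed 3 pairs of time points that overlapped within the pair and not with the next pair, namely ZT21 with ZT17, ZT13 with ZT1, and ZT9 with ZT5. The mean was 47.6 ± 6.17 (SD, n = 3) at ZT21 and 6.36 ± 1.05 at ZT5, a ratio of 7.49, which was 8.23 without liver 3 at ZT5. *Cry1* fell by 1.84 ± 0.18 on the log2 scale from ZT1 to ZT5, while *Per1*, *Per3* and *Cry2* rose, and rose by 1.496 ± 0.18 from ZT9 to ZT13 (adjusted *P*-values of 1.81e-05 and 0.00016 in limma). Without liver 3 at ZT5 the fall was -1.95 ± 0.19 (6.17e-05). The step from ZT13 to ZT17, of 0.77 ± 0.18, was called with an adjusted *P*-value of 0.0471 in limma, and the livers of both times did not overlap. That call was lost in 14 of 18 fits without 1 liver (up to 0.181) and under 3 of 6 other settings. ZT17 and ZT21 differed by 0.054 ± 0.18, within the spread between livers.

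*Cry2* encodes the second cryptochrome, and its RNA varied least. Its values were 17.8, 19.3 and 21.0 at ZT1, and 32.8, 37.6 and 35.0 at ZT5. They were 39.9, 44.8 and 37.0 at ZT9, and 32.9, 33.5 and 31.7 at ZT13. At ZT17 they were 36.6, 35.4 and 41.3, and at ZT21 26.1, 38.3 and 31.7. The 3 livers of ZT1 were below the other 15, and the other time points overlapped one with the next in the order of levels. The mean was 40.6 ± 3.98 (SD, n = 3) at ZT9 and 19.4 ± 1.61 at ZT1, a ratio of 2.09. The rise from ZT1 to ZT5, of 0.83 ± 0.12 on the log2 scale, had an adjusted *P*-value of 0.001 in limma, and of 0.00622 without liver 3 at ZT5. *Cry2* fell by 0.68 ± 0.12 from ZT21 to ZT1, with 0.0386 in the same test, and this call was lost in 16 of 18 fits without 1 liver (up to 0.237) and under 3 of 6 other settings.

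The 6 steps from 1 time point to the next gave 30 member comparisons, of which 16 passed. From ZT1 to ZT5, 4 of 5 members were called against 4.89% of all genes, and 3 of them rose. From ZT5 to ZT9 there were 2, against 1.54% of genes, both of them higher. Between ZT9 and ZT13 there were 3, with *Per2* and *Cry1* higher and *Per3* lower, against 9.23%. From ZT13 to ZT17 (1.2% of genes) and from ZT17 to ZT21 (1.51%) there were 2 each. The step from ZT21 to ZT1 was called for 19 genes in all, 0.131% of those tested, and *Per1*, *Per3* and *Cry2* were 3 of them. In that step *Per1* had the largest difference of the 19 on the log2 scale. Without liver 3 at ZT5 the members called were 4, 3, 3, 3, 2 and 2 in the order of the steps. Of the 14449 genes tested, 376, 181, 1240, 173, 183 and 19 were called in these fits. From ZT13 to ZT17 the count was 0 without any 1 liver of ZT13, without liver 1 or 3 at ZT17, or with a pseudocount of 0.1 or none. From ZT5 to ZT9 and from ZT17 to ZT21 the member count was as low as 1 without 1 liver. The fits with 1 member called 79 to 149 of all genes in the former step and 49 to 173 in the latter. Neighbouring steps share livers, so a high or low group moves both.

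**Figure D2:**
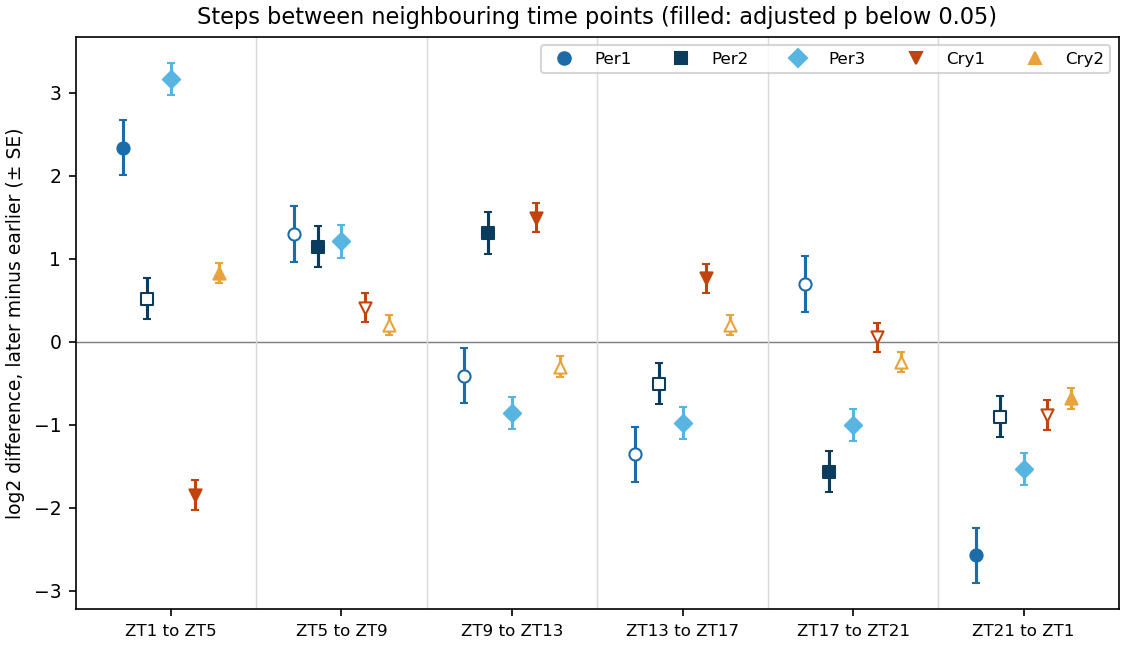
Log2 difference between neighbouring time points, later minus earlier, with SE (vertical axis), for the 6 steps (horizontal axis) and the 5 members. Filled symbols passed an adjusted *P*-value of 0.05 in limma. The rises of *Per1* and *Per3* and the fall of *Cry1* stand in the step from ZT1 to ZT5, and *Per1* has its largest fall from ZT21 to ZT1.

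A 24 h cosine was fitted to compare size and time of the rhythms. All 5 members passed the moderated F test in limma, against 35.3% of all genes. The amplitude, the height of the cosine above its mean on the log2 scale, was 1.84 ± 0.21 (SE) for *Per3*, 1.48 ± 0.10 for *Per2*, 1.44 ± 0.10 for *Cry1*, 1.26 ± 0.28 for *Per1* and 0.32 ± 0.09 for *Cry2*, and the median over all genes was 0.16. Adjusted *P*-values in limma were 1.33e-05, 5.51e-08, 7.97e-08, 0.00629 and 0.029 in the same order. The call of *Cry2* was lost without any 1 of the 3 livers of ZT1 or without liver 2 at ZT9 (up to 0.0772). The amplitude of *Cry2* was lower than that of *Cry1* by 1.12 (95% interval of the difference, *Cry2* minus *Cry1*, -1.41 to -0.82).

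The fitted peaks came in the order *Per3* (ZT 10.8 ± 0.427 h, SE), *Per1* (11.6 ± 0.849), *Cry2* (12.2 ± 1.082), *Per2* (13.9 ± 0.255) and *Cry1* (18.8 ± 0.264). These hours and the intervals below take a single 24 h cosine as the shape of each profile. *Per2* peaked 3.10 h after *Per3* and 2.26 h after *Per1*, with 95% intervals of 1.96 to 4.23 h and 0.197 to 4.33 h. *Cry1* followed *Per2* by 4.90 h (4.07 to 5.72), *Per1* by 7.16 h (5.11 to 9.21) and *Per3* by 7.99 h (6.97 to 9.01). The fitted peak of *Cry2* was 6.62 h before that of *Cry1* (4.14 to 9.10). The *Cry2* hour lies beside ZT13, where its mean (32.7) was below those of ZT9 (40.6) and ZT17 (37.8). Peaks of *Per3* and *Per1* were 0.832 h apart, with an interval that included 0 (*Per3* minus *Per1*, -2.33 to 0.666 h), and so did the intervals of *Cry2* against each Period gene. Without liver 3 at ZT5 the peaks were at 11.1 h for *Per3*, 12.0 h for *Per1*, 12.5 h for *Cry2*, 14.04 h for *Per2* and 18.8 h for *Cry1*, in the same order.

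**Figure D3:**
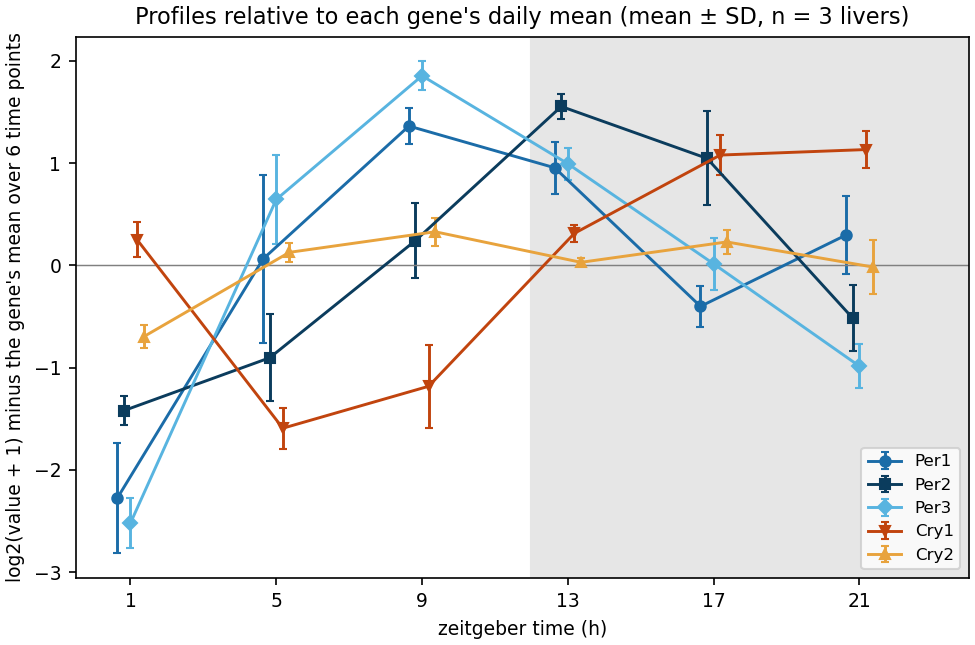
Mean ± SD of 3 livers (vertical axis) as the log2(value + 1) of each member minus its own mean over the 6 time points, against zeitgeber time in hours. *Per1* and *Per3* are highest at ZT9, *Per2* at ZT13 and *Cry1* at ZT17 and ZT21, and *Cry2* stands apart from its daily mean at ZT1.

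The shape of the profile differed between members. The cosine took up 92.8% of the variance of *Per2* and 92.3% of that of *Cry1*, against 81.4% for *Per3*, 52.5% for *Per1* and 42.1% for *Cry2*. A 12 h term added to the cosine passed in limma for *Per3* (amplitude 0.77 ± 0.11, adjusted *P*-value of 0.00765) and *Cry2* (0.33 ± 0.05, 0.0148), 2 of 5 members, against 0.872% of all genes. It did not pass for *Per1* (0.88 ± 0.20, 0.0999), *Cry1* (0.31 ± 0.07, 0.0999) or *Per2* (0.14 ± 0.10, 0.779). For *Cry2* the 12 h amplitude was 1.03 times the 24 h amplitude. With liver 1 at ZT9 left out the term passed for *Cry1* (0.0285), and with liver 2 at ZT1 left out it did not for *Cry2* (0.0604). With both terms, the fitted curves were highest at 8.54 h for *Per3*, 9.21 h for *Per1*, 7.80 h for *Cry2*, 14.2 h for *Per2* and 20.3 h for *Cry1*, so the peak of *Per1*, *Per3* and *Cry2* moved to an earlier hour and that of *Cry1* to a later one. *Cry2* was then first in the order, followed by *Per3*, *Per1*, *Per2* and *Cry1*. The gaps from *Per1* and *Per3* to *Per2*, and from each other member to *Cry1*, lay above the intervals of the single cosine. With 6 time points that are 4 h apart, the hour of a narrow peak is read from few points.

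JTK, a rank test against cosine orders of 20 to 28 h, called 3 of 5 members, against 14.0% of all genes. The *q*-value was 0.00474 for *Per2*, 0.00647 for *Cry1* and 0.0131 for *Per3*. It was 0.13 for *Per1* and 1.0 for *Cry2*, both of which passed the time effect. *Per1* was called when time points of equal cosine were taken as 1 group (0.0375). The best period was 24 h for *Per2*, 28 h for *Cry1* and 20 h for the other members. Only orders of 20, 24 and 28 h were tried, on a single sampled cycle, so the best one does not estimate the period of a gene.

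Levels of different genes were compared per length of exon. As the mean of 6 time points, the normalized value per kb of exon was 8.02 for *Cry1*, 7.76 for *Per2*, 5.21 for *Cry2*, 2.46 for *Per1* and 2.37 for *Per3*. With the longest transcript as the length the values were 8.85, 7.79, 8.28, 2.96 and 3.79, so that *Cry2* stood above *Per2* and *Per3* above *Per1*. On the exon scale, the level of *Cry1* was 0.343 ± 0.0551 (SD, n = 3) times that of *Cry2* at ZT5 and 2.85 ± 0.374 times at ZT21. The ratio was under 1 at ZT5 and ZT9 and above 1 at the other 4 time points, with either length. *Per2* had the highest mean of the Period genes at all 6 time points on the exon scale. *Per3* stood at 0.856 ± 0.139 times *Per2* at ZT9 and at 0.129 ± 0.0206 times at ZT17, and with the longest transcript the ratio was 1.31 ± 0.038 at ZT5 and 1.37 ± 0.222 at ZT9, so that *Per3* was the higher at both.

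Taken as sums per kb of exon, the 3 Period genes went from 2.52 ± 0.293 at ZT1 to 24.4 ± 1.10 at ZT13, and the 2 cryptochromes from 7.46 ± 0.55 at ZT5 to 19.7 ± 2.002 at ZT17. The ratio of the Period sum to the cryptochrome sum was 0.236 ± 0.00353 (SD, n = 3) at ZT1, 1.04 ± 0.316 at ZT5 and 1.99 ± 0.46 at ZT9. It was 1.87 ± 0.108 at ZT13, 0.803 ± 0.274 at ZT17 and 0.38 ± 0.12 at ZT21. The mean ratio was above 1 at ZT9 and ZT13 and under 1 at ZT1, ZT17 and ZT21 with either length. At ZT5 it was 0.891 ± 0.28 with the longest transcript, and 0.731 without liver 3 at ZT5. On the exon scale it was 0.858 at ZT5 without that liver, the only one of the 3 above 1 there. These are RNA levels and carry no measure of the proteins.

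**Figure D4:**
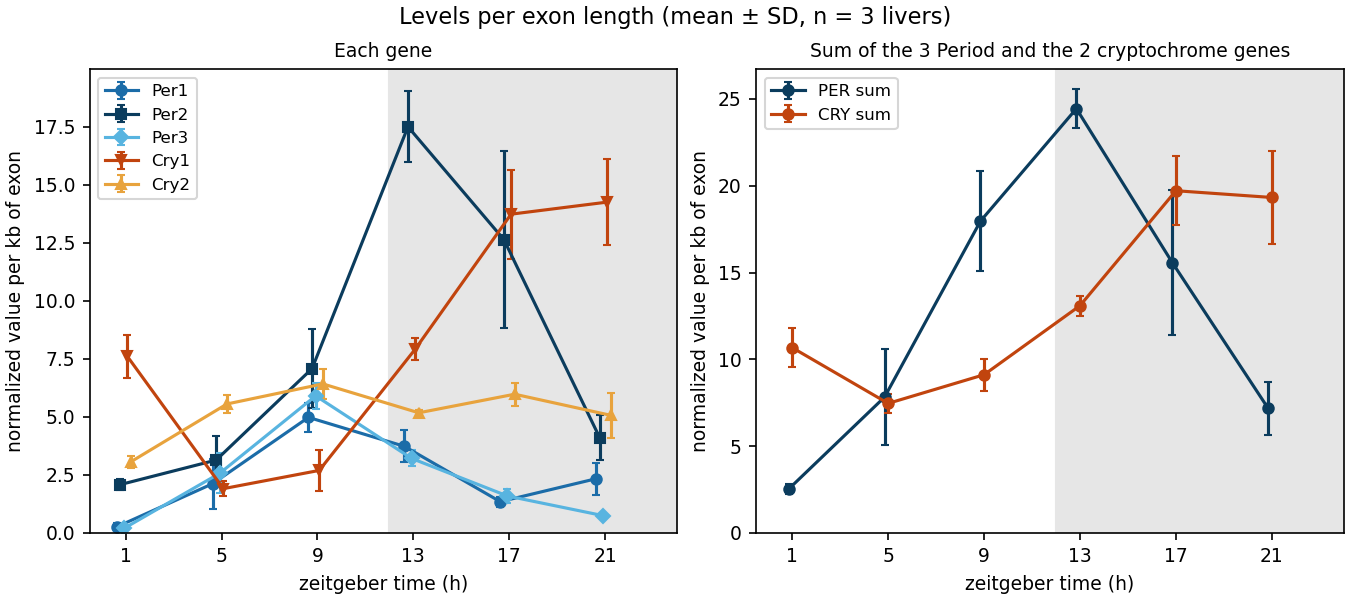
Normalized value per kb of exon (vertical axes, from 0), mean ± SD of 3 livers, against zeitgeber time in hours for each member (left) and for the sums of the Period and cryptochrome genes (right). *Per2* reaches the highest level at ZT13, and the Period sum is above the cryptochrome sum at ZT9 and ZT13 and below it at ZT1 and ZT21.

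The spread between livers differed as well. The SD within time points on the log2 scale was 0.46 for *Per1*, 0.33 for *Per2*, 0.26 for *Per3*, 0.23 for *Cry1* and 0.15 for *Cry2*, against a median of 0.19 over all genes. The median CV over the 6 time points was 23.9% for *Per1*, 23.99% for *Per2*, 18.02% for *Per3*, 13.5% for *Cry1* and 8.28% for *Cry2*.

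The partners of the loop were taken as a list. All 7 clock loop partners in the table passed the time effect in limma, where 26.3% of all genes did. The 24 h cosine was called for 6 of the 7, all but *Rora*, whose fitted peak is counted here in the light. Of the 7 fitted peaks, 3 were in the light and 4 in the dark, and the median 24 h amplitude was 1.78. *Nr1d1*, which encodes the repressor REV-ERBα, peaked at ZT 6.20 ± 0.172 h (SE) with an amplitude of 2.79 ± 0.13, before all 5 members, and *Npas2*, a paralog of *Clock*, peaked after all 5 at 22.6 ± 0.341 h with 2.04 ± 0.18. The 7 E-box and D-box factors, which act on or compete at the same elements, also all passed, 5 of them with a peak in the light and with a median amplitude of 1.09. *Dbp*, the D-box activator, had the largest (3.30 ± 0.31, peak at 8.59 ± 0.356 h), and *Ciart*, a repressor that binds BMAL1, came next at 1.84 ± 0.17 and 10.6 ± 0.346 h, beside a peak of 10.8 ± 0.427 h for *Per3*.

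**Figure D5:**
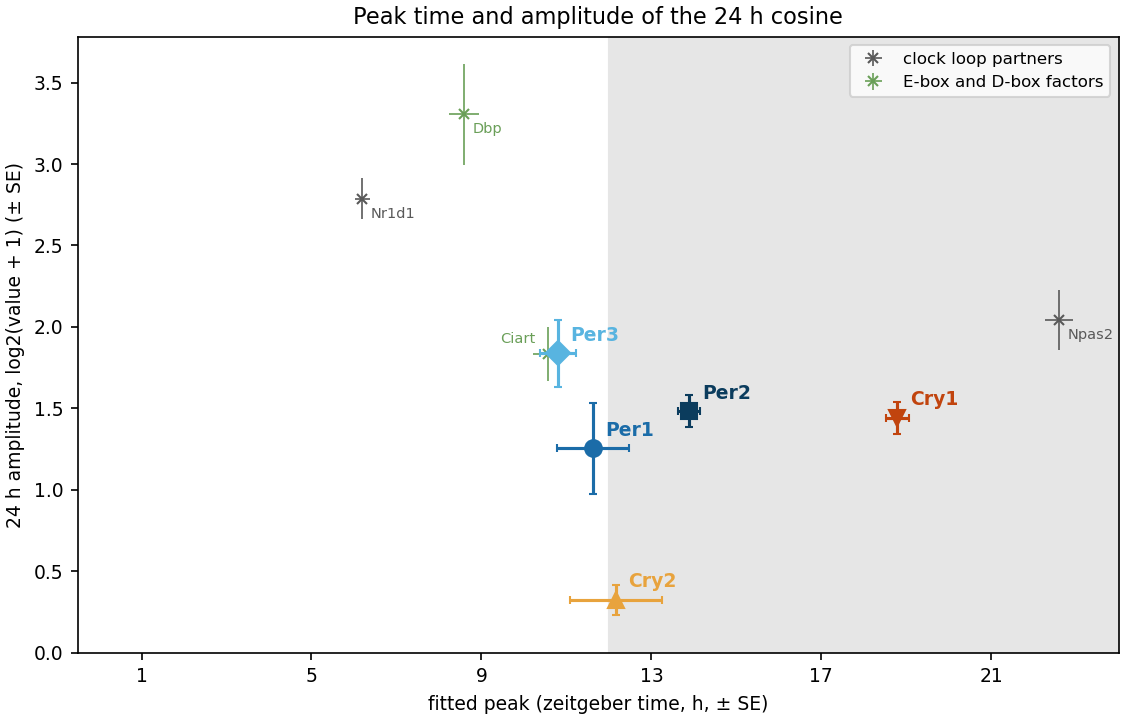
Amplitude of the 24 h cosine on log2(value + 1) (vertical axis, from 0) against its peak in zeitgeber hours (horizontal axis), with SE in both directions, for the 5 members, 2 clock loop partners and 2 E-box and D-box factors, those named with values in the text. The cosines of *Per3*, *Per1* and *Cry2* peak around lights off, that of *Per2* early in the dark and that of *Cry1* before that of *Npas2*. The means of *Per3*, *Per1* and *Cry2* are highest earlier, at ZT9.

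Genes for the kinases, phosphatases, ligases and proteases that act on PER and CRY proteins had a median 24 h amplitude of 0.11, against 0.16 over all genes. Of 19 such modifiers, 4 passed the time effect, where 26.3% of all genes did, all with a peak in the light. *Usp2*, a deubiquitinase, reached 1.90 ± 0.19 (SE) with a peak at 11.9 ± 0.383 h. The 15 others, with *Csnk1d* and *Csnk1e* among them, did not pass. Of 14 genes of CREB, glucocorticoid and heat shock signalling, which can act on *Per1* and *Per2* from outside the loop, 8 passed. The list had a median amplitude of 0.27, and 7 of the 8 peaks were in the dark. How the peaks of all genes split between light and dark was not counted, so these list counts have no background. In each of the 4 gene lists, at least 1 counted peak lay within 1 SE of lights on or off. The fit does not resolve whether such a peak is in the light or the dark. *Fkbp5*, a glucocorticoid target, had 1.25 ± 0.16 and peaked at 14.3 ± 0.499 h, and *Hspa1b*, a heat shock protein, 1.16 ± 0.32 at 13.5 ± 1.06 h. Both had a wide spread at ZT13, where the mean was 119 ± 82.6 (SD, n = 3) for *Fkbp5* and 128 ± 60.6 for *Hspa1b*.

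For each member, the genes with the most similar profile were sought among 12480 genes with a mean value of at least 1, by Pearson *r* of log2(value + 1) over the 18 livers. These livers share their time points, so *r* is a description. *Per3* had the closest match, *Tef* (*r* = 0.99), a D-box activator, followed by *Gys2* (0.967), the liver glycogen synthase, and *Upp2* (0.964), a uridine phosphorylase. *Per2* was most like *Atp6v1d* (0.955), a subunit of the vacuolar proton pump, *Gm26880* (0.952) and *Homer2* (0.937). *Cry1* was most like *Bpnt1* (0.97), *Gm20634* (0.95) and *Ddit4* (0.94), an inhibitor of mTOR signalling, and most opposite to *Nr1d1* (-0.966). *Per1* was most like *Mfsd2a* (0.905), a lipid transporter, *Usp2* (0.895) and *Vamp2* (0.892), and *Vamp2* ends 2832 bases before *Per1* on the same strand of chromosome 11. *Cry2* had the weakest matches, *Rara* (0.868), a retinoic acid receptor, *Zyx* (0.85) and *Kcnk5* (0.846). The most opposite genes were *Clint1* (-0.916) for *Per1*, *Zc3hav1* (-0.969) for *Per2*, *Mad2l2* (-0.963) for *Per3* and *Zfp638* (-0.86) for *Cry2*. Among the members themselves *r* was highest between *Per1* and *Per3* (0.848) and between *Per3* and *Cry2* (0.817), and lowest between *Per3* and *Cry1* (-0.498).

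Markers of cell types were tested in the same fits, in which 26.3% of all genes passed the time effect and 35.3% the 24 h cosine. The time effect was called for 1 of 6 Kupffer cell markers (*Cd5l*), 1 of 4 cholangiocyte markers (*Sox9*) and 1 of 6 hepatocyte markers (*Ttr*), and for none of the 5 endothelial, 5 stellate and 4 blood markers, nor for the 2 T and B cell markers in the table. The 24 h cosine was called for 3 of 6 Kupffer, 2 of 5 endothelial, 3 of 4 cholangiocyte and 2 of 6 hepatocyte markers. Summed blood markers were between 19.4 and 567, cholangiocyte markers between 5.58 and 15.1, and T and B cell markers between 0.492 and 3.73 over the 18 livers. The part of these cells in the rhythms of the 5 members was not tested.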

How the data were processed

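RNA of 18 mouse livers, 3 at each of 6 zeitgeber times, was sequenced, and the labels name it as polyA RNA. The authors demultiplexed reads with CASAVA, removed adapters with Cutadapt, mapped on the GRCm38 transcriptome and quantified with RSEM (the submitters' processing notes name CASAVA 1.8.2 and RSEM 1.2.20), and normalized the estimated counts with limma. Each deposited value is a linear signal: estimated reads with 0.5 added, scaled to 1000000 reads of a library size that the authors adjusted. RSEM divides reads that match several genes, so values of related genes are estimates. Depth, calculated back from the deposited values, was 10268168 to 23242842 estimated reads per liver. The 2 of 14451 genes at the floor in every liver were left out.

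For 14449 genes, log2(value + 1) was fitted with limma 3.58.1 in R 4.3.3, with 1 mean per time point, with a 24 h cosine and sine, and with 24 h and 12 h terms together, and *P*-values were adjusted by Benjamini–Hochberg over all genes. A fold change on this scale understates the change of low genes. Differences in peak time came from the joint fit of both genes in the same livers, with 95% intervals by scipy 1.17.1. JTK was written anew from its description in Python 3.11.15, with numpy 2.4.6. Its null distribution was that of 6 groups of 3 livers, with time points of equal cosine counted as separate groups. Fewer genes were called this way than with such time points as 1 group. CircaN and MetaCycle were not run. Exon lengths and positions are from GENCODE M21, and promoters from RefSeq. The fits were tested on simulated data.

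The members, lists and tests were chosen with earlier results of these data known. Named besides the members are the 3 most alike genes and the most opposite gene of each, and, of each list, the 2 genes with the largest 24 h amplitude among those passing the time effect, with others named only by their call; some genes of the lists are not reported here. Alternatives covered pseudocount, filter, scaling, prior variance, null distribution, length and each liver left out.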

Additional observations from a re-analysis of the deposited data

How the results depend on the processing

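The time effect and the 24 h cosine kept their calls for all members under every alternative without a liver removed. Without 1 liver the amplitude of *Cry2* was between 0.26 and 0.37, with the call lost in 4 of 18 fits. In the 12 h term, the amplitude was then between 0.28 and 0.35 for *Cry1* and between 0.31 and 0.35 for *Cry2*. Genes called by the 12 h term numbered 126, against 76 with a pseudocount of 0.1, 62 with none and 32 to 114 without 1 liver. JTK called 2018 genes, against 3237 with equal cosines as 1 group, where the *q*-value of *Per1* was 0.0375, and 1127 to 1793 without 1 liver. With a trended prior variance, the steps ZT5 to ZT9, ZT13 to ZT17, ZT17 to ZT21 and ZT21 to ZT1 called 334, 300, 333 and 29 genes, against 222, 174, 218 and 19. Without 1 liver, the 6 steps from ZT1 onward called 352 to 729, 79 to 238, 701 to 1342, 49 to 208, 49 to 209 and 9 to 19 genes. Over 720 repeats of the 30 single steps of the members, 52 lost and 7 gained a call, and 2 turned sign, both for *Cry1* from ZT17 to ZT21 (-0.037 without liver 2 at ZT17 and -0.047 without liver 2 at ZT21, in a range of -0.047 to 0.16 without 1 liver). The level per kb became 3.79 for *Per3* and 8.28 for *Cry2* with the longest transcript. Ratios without 1 liver were added after seeing the data. The cause of these changes was not tested.

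With 10 to 14 estimated reads behind the lowest values of *Per1* and *Per3*, the size of their trough is imprecise. The CV between livers at ZT1 was 67.2% for *Per1* and 26.4% for *Per3*, against 51.1% and 33.2% at ZT5. A single cycle was sampled, so a rhythm that repeats cannot be told from a change within that day. No paired analysis was possible because each liver came from another mouse and the labels give no shared replicate numbers.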
